A study of Mus musculus with 6 samples.

Results

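The 10 genes described here belong to the beta-catenin-dependent program of hepatocytes around the central vein. They were chosen by symbol from that program, and the array table held 1 row for each of the 10 among 27381 genes. They were Glul, Lgr5, Axin2, Tbx3, Rnf43, Znrf3, Slc1a2, Rhbg, Lect2 and Oat. Whole liver RNA of C57BL/6J mice (wild-type males in the methods of the study) was measured on 6 Affymetrix Mouse Gene ST arrays. Both groups carried the same dietary load, a NASH diet rich in palm oil fat (40% of energy), fructose (20% of energy) and cholesterol (2%), which began at 10 weeks of age and lasted 32 weeks. They received AAV-Glrx or AAV control by intraperitoneal injection after 20 weeks of the diet, at 1e+12 vector genomes per mouse, and stayed on the diet for another 12 weeks. AAV-Glrx expresses tagged mouse Glrx from the promoter of Serpina7, which is active in hepatocytes, and AAV control carries the empty cassette. Each group had 5 or 6 mice, whose RNA was combined into 3 pools, so each replicate is a pool, and no group on regular chow or without vector was measured here.

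Hepatocytes differ along the path of blood from the portal vein to the central vein. Endothelial cells at the central vein secrete Wnt ligands and R-spondin 3, and these stabilize beta-catenin in nearby hepatocytes. Beta-catenin with TCF factors then switches on pericentral genes, of which glutamine synthetase (Glul) is the classical marker. Such cells take up ammonium and glutamate and form glutamine, while periportal hepatocytes make urea and glucose.

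Promoter windows of RefSeq (GRCm38.p6, 250 bases before to 50 after a start site) were at hand for 6 of the 10 genes, and the TCF core CTTTGNN, with A or T at each N, stood on either strand in the windows of 2 of them. Slc1a2 and Lect2 are shown because they were those 2, with the match in capitals and 10 bases on each side, read on the strand opposite to the gene. The first lies at chr2:102706221-102706247 (the gene is on the plus strand) and the second at chr13:56548554-56548580 (the gene is on the minus strand).
Slc1a2: catttggggcCTTTGATgtccctcttc
Lect2: cggccaaagcCTTTGATctggagaagc
Counted from the start site of the window in the direction of the gene, the first base of the match was at -207 in Slc1a2 and at -32 in Lect2. The Slc1a2 window lies inside the annotated gene, so its start site is an internal one and not the first base of the gene. The start site of the Lect2 window also lies inside the annotated gene, but close to its first base. Neither position is thus counted from the first base of its gene. Of all 32851 such windows, 16.9% held a match. A match is a description of letters and not a shown site. The windows of Axin2, Rnf43, Glul and Oat held no match.

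Lgr5 and Tbx3 had the largest differences among the 10 genes, both higher in AAV-Glrx, while the ammonia and glutamate genes Glul, Rhbg and Oat differed by less than the spread between pools. Of the 10 genes, 9 had a higher mean in AAV-Glrx, as did 49.5% of all genes, and the median log2 fold change was 0.17, against -0.0012 over all genes. At an unadjusted p under 0.05, 2 were higher (2.76% of all genes) and 0 lower (3.01% of all genes), and both directions together held 5.77% of all genes. None passed the test over all genes, in which 1 gene (0.00365%) had an adjusted p under 0.1 (limma with Benjamini-Hochberg adjustment over 27381 genes). The smallest adjusted p among the 10 was 0.847, that of Lgr5 and of Tbx3, and the difference from AAV control was therefore not established for any of them. The median was 0.09 without AAV control 1, 0.10 without AAV-Glrx 1 and 0.26 without AAV-Glrx 3.

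**Figure D1:**
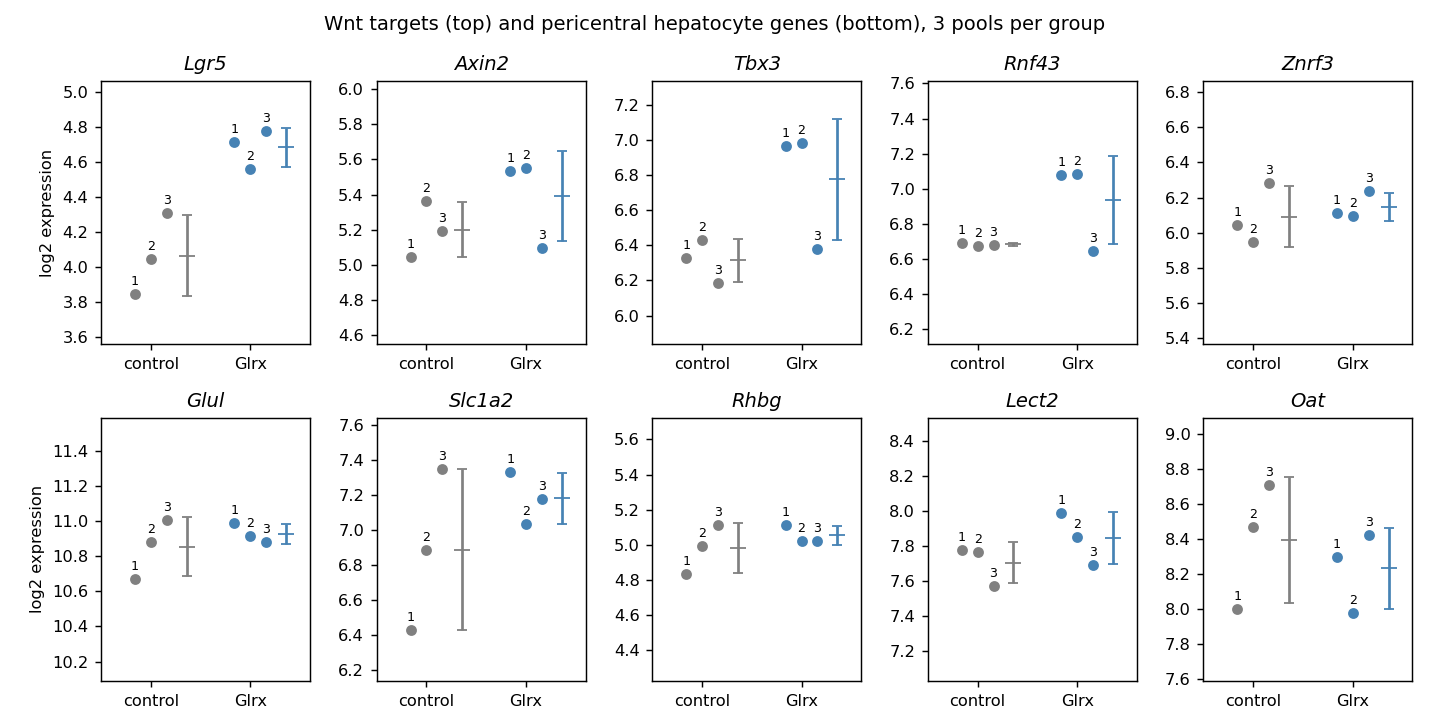
Log2 expression (vertical axes, all of the same length of 1.5 units) of the 10 genes in the 3 AAV control pools (grey) and the 3 AAV-Glrx pools (blue), numbered by pool, with the mean and SD beside them. The groups separate for Lgr5, and AAV-Glrx 3 lies near the controls for Axin2, Tbx3 and Rnf43.

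Lgr5, the R-spondin receptor that marks hepatocytes next to the central vein, was the only one of the 10 genes whose groups did not overlap (5.51% of all genes were higher without overlap, 5.38% lower). Its log2 values were 3.84, 4.04 and 4.31 in AAV control 1, 2 and 3 and 4.71, 4.56 and 4.78 in AAV-Glrx 1, 2 and 3. The lowest AAV-Glrx pool was thus above the highest control, and the controls were spread more widely than the AAV-Glrx pools. The mean was 4.07 ± 0.23 (SD, n = 3 pools) in AAV control and 4.68 ± 0.11 (SD, n = 3 pools) in AAV-Glrx, a log2 fold change of 0.62 (standard error 0.13, 95% interval 0.31 to 0.92), or 1.53-fold. It ranked 40 of 27381 genes by p (limma, unadjusted p = 0.00171, adjusted p = 0.847, higher in 3 of 3 pools). Without any 1 array the log2 fold change was 0.51 to 0.74. The signal was low. The 95th percentile of 1088 olfactory receptor genes, which serve here as a guide to background, was 4.02, above AAV control 1. A fold change this close to background may be understated. In whole liver, a change in the number of cells of a type and a change in RNA per cell cannot be told apart. This holds for Lgr5 and for any other gene named here.

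Tbx3, a T-box transcription factor and target of beta-catenin in liver, had log2 values of 6.33, 6.43 and 6.19 in AAV control 1, 2 and 3. In AAV-Glrx 1, 2 and 3 they were 6.97, 6.99 and 6.38. AAV-Glrx 1 and 2 lay above every control, and AAV-Glrx 3 lay among the controls, so the groups overlapped. On the log2 scale the difference was 0.46 (standard error 0.17, 95% interval 0.07 to 0.86), or 1.38-fold (limma, unadjusted p = 0.0274, adjusted p = 0.847). It was 0.66 without AAV-Glrx 3 and 0.36 without AAV-Glrx 2, and its unadjusted p stayed under 0.05 in 2 of the 6 fits that leave out 1 array, those without AAV control 2 or AAV-Glrx 3.

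Axin2 encodes the scaffold of the complex that degrades beta-catenin and is induced by Wnt signals in most tissues, as a negative feedback. Its log2 values were 5.05, 5.36 and 5.19 in AAV control 1, 2 and 3 and 5.53, 5.55 and 5.10 in AAV-Glrx 1, 2 and 3. As for Tbx3, AAV-Glrx 1 and 2 were above every control and AAV-Glrx 3 was not. Its log2 fold change was 0.19 (standard error 0.15, 95% interval -0.15 to 0.53). It was 0.34 without AAV-Glrx 3, and 0.12 without AAV control 1, AAV-Glrx 1 or AAV-Glrx 2.

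Rnf43 and Znrf3 encode related membrane ubiquitin ligases that remove Frizzled receptors from the cell surface and are neutralized by R-spondins bound to LGR receptors. Rnf43 was nearly level in AAV control, at 6.69, 6.67 and 6.68, and stood at 7.08, 7.08 and 6.65 in AAV-Glrx 1, 2 and 3. The first 2 AAV-Glrx pools were above all controls and the third was below all of them. The log2 fold change was 0.25 (standard error 0.13, 95% interval -0.05 to 0.55), and 0.40 without AAV-Glrx 3. Znrf3 did not share this pattern, with 6.05, 5.95 and 6.28 in AAV control and 6.11, 6.09 and 6.24 in AAV-Glrx. Its log2 fold change was 0.06 (standard error 0.11, 95% interval -0.20 to 0.31), which turned to -0.02 without AAV control 2 and was 0.15 without AAV control 3.

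**Figure D2:**
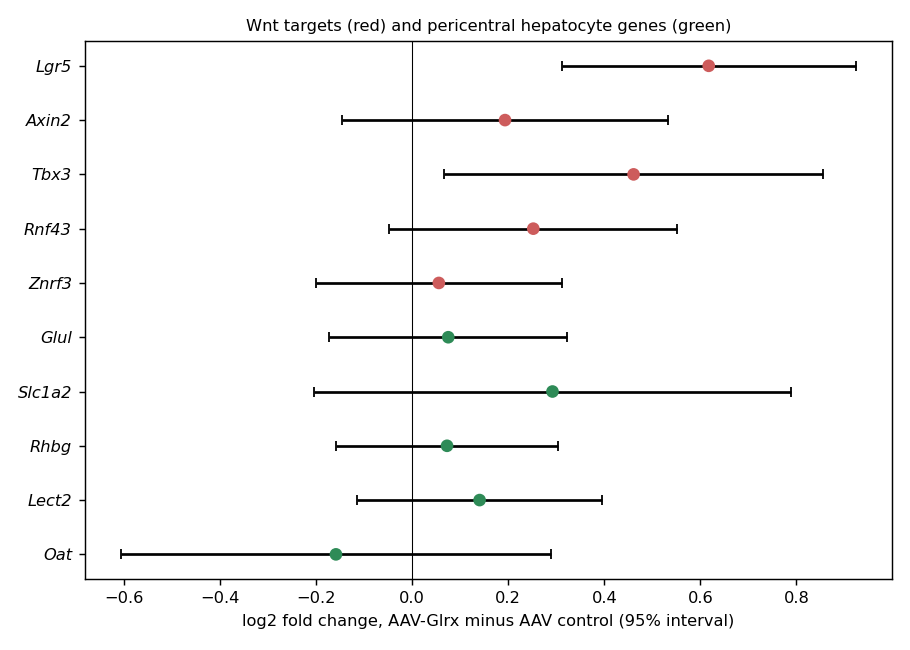
Log2 fold change (AAV-Glrx minus AAV control, horizontal axis) of the 10 genes with its 95% interval from limma, Wnt targets in red and pericentral hepatocyte genes in green. The unadjusted intervals of Lgr5 (0.31 to 0.92) and Tbx3 (0.07 to 0.86) lie above 0 and the other 8 include 0.

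Glul, the enzyme that joins ammonium to glutamate, had log2 values of 10.67, 10.88 and 11.01 in AAV control 1, 2 and 3. In AAV-Glrx 1, 2 and 3 they were 10.99, 10.92 and 10.88, all within the range of the controls. The log2 fold change was 0.08 (standard error 0.11, 95% interval -0.17 to 0.32), and it was -0.02 without AAV control 1 and 0.15 without AAV control 3. The upper end of this unadjusted interval, 0.32, rests on 3 pools per group. The Glul signal was higher than that of 99.8% of all genes, so a low signal does not limit it.

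Slc1a2 encodes the glutamate transporter GLT-1, which in liver is found on hepatocytes at the central vein. It had the widest spread of the 10 genes among controls, at 6.43, 6.89 and 7.35 in AAV control 1, 2 and 3, and 7.33, 7.04 and 7.18 in AAV-Glrx 1, 2 and 3. AAV control 1 stood below every other pool and AAV control 3 above every other pool. The log2 fold change of 0.29 (standard error 0.21, 95% interval -0.20 to 0.79) was 0.06 without AAV control 1 and 0.52 without AAV control 3. Its unadjusted p fell under 0.05 only in the fit without AAV control 3.

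Rhbg, an ammonium transporter of the Rhesus family, was at 4.83, 4.99 and 5.11 in AAV control and 5.11, 5.02 and 5.02 in AAV-Glrx, again within the controls' range. On the log2 scale Rhbg differed by 0.07 (standard error 0.10, 95% interval -0.16 to 0.30), and by -0.0014 without AAV control 1 and 0.14 without AAV control 3. Oat, the mitochondrial ornithine aminotransferase that yields glutamate, was the only one of the 10 genes with a lower mean in AAV-Glrx. It was at 8.001, 8.469 and 8.706 in AAV control and 8.298, 7.976 and 8.425 in AAV-Glrx, with a log2 fold change of -0.16 (standard error 0.19, 95% interval -0.61 to 0.29). This difference was -0.35 without AAV control 1 and -0.25 without AAV-Glrx 3, but -0.0019 without AAV control 3 and -0.03 without AAV-Glrx 2, so that its size rested on single pools of both groups.

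Lect2, a secreted protein of hepatocytes that is induced by beta-catenin, was at 7.78, 7.77 and 7.57 in AAV control and 7.99, 7.85 and 7.69 in AAV-Glrx. AAV-Glrx 1 and 2 were above every control and AAV-Glrx 3 was not, as for Axin2, Tbx3 and Rnf43. Lect2 differed by 0.14 on the log2 scale (standard error 0.11, 95% interval -0.12 to 0.40). The difference was 0.07 without AAV control 3 or AAV-Glrx 1 and 0.22 without AAV-Glrx 3.

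The 10 genes varied among pools of the same group in 2 ways. In AAV control, Lgr5, Glul, Slc1a2, Rhbg and Oat were lowest in pool 1 and highest in pool 3, an order found in 5 of the 10 genes and in 16.8% of all genes. In AAV-Glrx, pools 1 and 2 were both above every control in 5 of the 10 genes (Lgr5, Axin2, Tbx3, Rnf43 and Lect2) and in 10.9% of all genes. AAV-Glrx 3 was above every control only for Lgr5, against 25.3% of all genes. These orders were chosen after the values were seen and counted in the same values. The 10 genes were measured on the same pools, so the counts describe them and are not a test. Taken over the deviations of each gene from its own mean, the median of the 5 Wnt targets (Lgr5, Axin2, Tbx3, Rnf43 and Znrf3) was -0.22, -0.13 and -0.10 in AAV control 1, 2 and 3 and 0.27, 0.25 and -0.16 in AAV-Glrx 1, 2 and 3. That of the 5 pericentral hepatocyte genes (Glul, Slc1a2, Rhbg, Lect2 and Oat) was -0.22, -0.01 and 0.11 in AAV control and 0.10, 0.01 and 0.00 in AAV-Glrx. The median of the first group thus differed most between AAV-Glrx pools, and that of the second mainly between control pools. Single genes departed from this. Lgr5 (SD 0.23 in AAV control and 0.11 in AAV-Glrx) and Znrf3 (0.17 and 0.08) spread more among controls. Lect2 (0.12 and 0.15) spread more among AAV-Glrx pools.

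**Figure D3:**
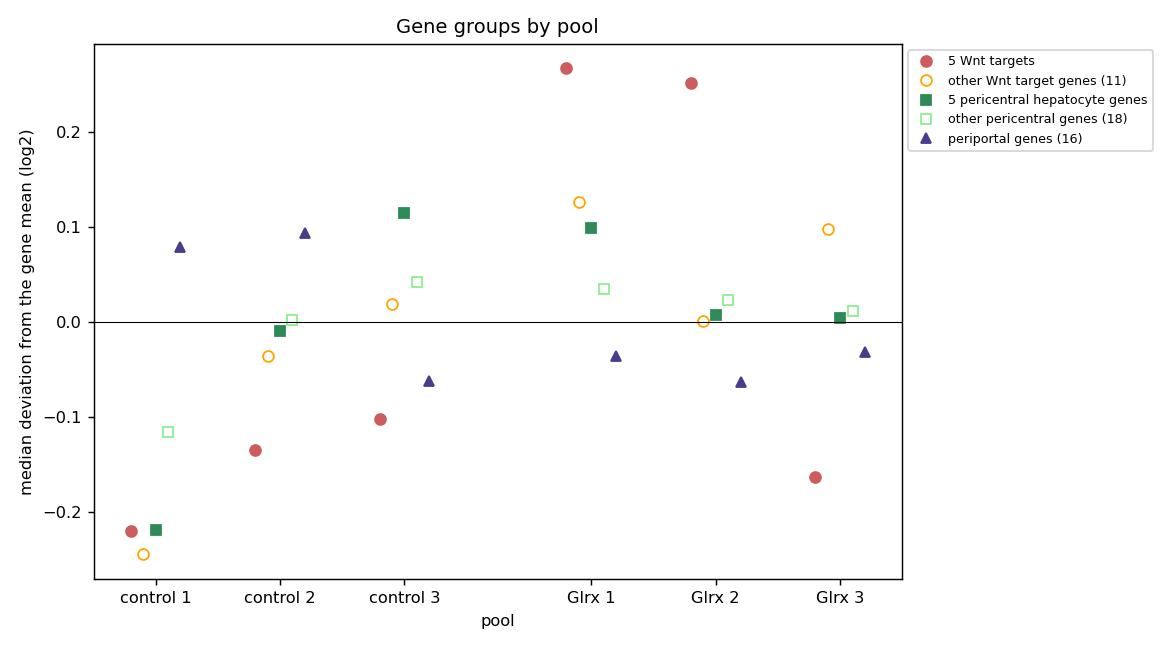
Median deviation from each gene's mean over the 6 arrays (log2, vertical axis) in each pool (horizontal axis) for the 10 genes, split into 5 Wnt targets and 5 pericentral hepatocyte genes (filled circles and squares), and for 3 other gene groups. Wnt targets stand at 0.27 and 0.25 in AAV-Glrx 1 and 2 and at -0.16 in AAV-Glrx 3. The Wnt target groups and the pericentral groups are all lowest in AAV control 1, and the periportal genes are not.

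Glrx, the gene of the vector, did not follow the split between AAV-Glrx 3 and the other AAV-Glrx pools. Its log2 values were 6.11, 6.03 and 5.66 in AAV control 1, 2 and 3 and 6.60, 7.77 and 7.24 in AAV-Glrx 1, 2 and 3. It was lowest of the AAV-Glrx pools in pool 1, whereas Axin2, Tbx3 and Rnf43 were lowest in pool 3. Whether the amount of vector expression bears on that split was not tested.

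Markers of other cell types also differed between pools. The median deviation of the 6 Kupffer cell markers, of the resident macrophages of the liver, was highest in AAV control 1 (0.32) and lowest in AAV-Glrx 1 (-0.32), the pools in which the median of the 10 genes was lowest (-0.22) and highest (0.23). Cd5l, Adgre1, Vsig4 and Clec4f each followed this order, whereas Timd4 (3.39) and Marco (4.21) were lowest of all pools in AAV control 1. All 6 had a lower mean in AAV-Glrx, 0 of them at an unadjusted p under 0.05, and the log2 of their summed level was 9.06 to 9.54 in AAV control and 8.79 to 9.30 in AAV-Glrx (the lowest log2 value of any of the 6 on any array was 3.39). The order was not particular to Kupffer cells. The median deviation of the 6 endothelial markers was also highest in AAV control 1 (0.06) and lowest in AAV-Glrx 1 (-0.12). Among them Stab2 followed this order, whereas Kdr and Cdh5 were highest in AAV-Glrx 2. The 4 measured B cell markers (Cd79a, Cd79b, Pax5 and Ms4a1) had a median deviation of -0.07, 0.30 and 0.20 in AAV control 1, 2 and 3 and of -0.29, -0.28 and 0.10 in AAV-Glrx 1, 2 and 3. Among the AAV-Glrx pools they were thus lower where the 5 Wnt targets were higher. Among the controls this did not hold, as AAV control 1 was lowest for these markers (-0.07) and for the 5 Wnt targets (-0.22). All 4 B cell markers had a lower mean in AAV-Glrx (median log2 fold change -0.31), 1 of them (Cd79a) at an unadjusted p under 0.05 (3.01% of all genes were lower at that threshold). The log2 of their summed level was 5.76 to 6.16 in AAV control and 5.41 to 5.74 in AAV-Glrx. Pax5 and Ms4a1 lay below the background guide of 4.02 on every array. Cd79a lay below it in AAV control 1 (3.73) and in all AAV-Glrx pools (3.39, 3.57 and 3.61). Cd79b did so in AAV-Glrx 1 and 2 (3.91 and 3.84). The part of any of these cell types in the results was not tested. The 6 measured hepatocyte markers had a median log2 fold change of 0.02, with a log2 summed level of 14.41 to 14.45 in AAV control and 14.42 to 14.45 in AAV-Glrx.

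Upstream of the 10 genes, no gene of the pathway passed the test over all genes. Of 21 genes of Wnt ligands and their secretion, 10 had a higher mean and 11 a lower one (median -0.01). Wnt5b, a ligand that acts mainly without beta-catenin, was at 4.06, 4.09 and 4.18 in AAV control and 4.63, 4.45 and 4.25 in AAV-Glrx, and its groups did not overlap (log2 fold change 0.33, standard error 0.11; limma, unadjusted p = 0.0196, adjusted p = 0.847). Wnt10a was lower without overlap, at 4.13, 4.23 and 4.25 against 4.02, 3.68 and 4.01 (-0.30, standard error 0.12). These 2 were the only genes of the list at an unadjusted p under 0.05 (5.77% of all genes) and the only ones without overlap (10.9% of all genes). Both were close to the background guide of 4.02.

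Wnt2 and Wnt9b, the ligands of the central vein and sinusoid endothelium, differed by -0.05 (standard error 0.10) and 0.14 (standard error 0.11) on the log2 scale. Wnt2 (3.93 to 4.21) and Wnt9b (3.99 to 4.37) lay at the background guide of 4.02 too, where a difference may be understated. Rspo3, the R-spondin of the central vein, was at 5.42, 5.40 and 5.43 in AAV control and 5.20, 5.44 and 4.94 in AAV-Glrx, a log2 fold change of -0.22 (standard error 0.13) with overlapping groups. It was thus lower in the mean, where Lgr5, Tbx3, Axin2 and Rnf43 were higher. Of the 6 R-spondin and LGR genes beside Lgr5, 0 were at an unadjusted p under 0.05 in either direction, and the second by p, Lgr6, was at -0.12 with levels of 3.89 to 4.43. The 6 genes of the central vein endothelium, which hold Wnt2, Wnt9b and Rspo3, had a median of -0.06.

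Among 12 Frizzled and LRP receptor genes, 6 were higher and 6 lower in the mean (median 0.01), and 3 were higher without overlap (5.51% of all genes). Fzd7, a Wnt receptor, was at 5.86, 5.39 and 5.57 in AAV control and 5.96, 6.16 and 5.99 in AAV-Glrx. Its log2 fold change was 0.43 (standard error 0.13), or 1.35-fold, and it was the only receptor at an unadjusted p under 0.05 (limma, unadjusted p = 0.0131, adjusted p = 0.847). At that threshold 2.76% of all genes were higher. Fzd4, the second by p, was at 0.28 (standard error 0.13) with overlapping groups. The other 2 without overlap, Fzd8 (0.25, standard error 0.12) and Fzd5 (0.15, standard error 0.09), were chosen after their values were seen.

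Of 15 Wnt inhibitors, 9 were higher and 6 lower in the mean (median 0.04), with Kremen2 at -0.16 and Notum, itself a Wnt target, at 0.15. The 13 genes of Dishevelled and the destruction complex had a median of 0.04 and lay between -0.06 and 0.14, with Apc2 at 0.14 (levels of 3.87 to 4.23, close to the background guide) and Tnks at 0.11. Ctnnb1, which encodes beta-catenin, was at 8.31, 8.46 and 8.46 in AAV control and 8.40, 8.49 and 8.45 in AAV-Glrx (log2 fold change 0.04, standard error 0.09). Of the 9 measured genes of beta-catenin and its nuclear partners, Bcl9 had the smallest p at -0.33 (standard error 0.21), and its relative Bcl9l was at 0.14. In these 3 lists 0 genes were at an unadjusted p under 0.05. The arrays measure mRNA, and the amount or place of the beta-catenin protein is not among these data.

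Of 11 other Wnt target genes, 9 had a higher mean, with a median of 0.13, and 0 were at an unadjusted p under 0.05. Cldn2, a tight junction gene of pericentral hepatocytes, was at 5.31, 5.58 and 5.61 in AAV control and 5.93, 5.85 and 5.42 in AAV-Glrx (0.24, standard error 0.15), so that AAV-Glrx 3 was again within the controls. Ascl2 was at 0.26 (standard error 0.12) but at levels of 2.41 to 2.97, below the background guide. The median deviation of these 11 genes was -0.24 in AAV control 1, -0.04 and 0.02 in AAV control 2 and 3, and 0.13, 0.00 and 0.10 in AAV-Glrx 1, 2 and 3.

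**Figure D4:**
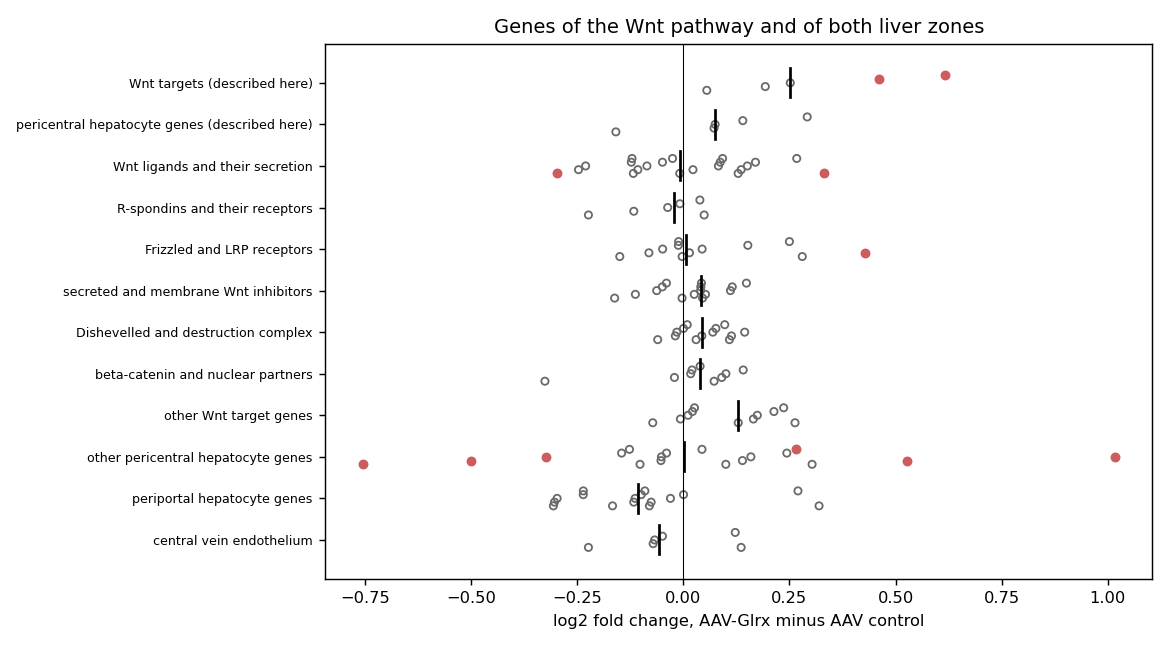
Log2 fold change (AAV-Glrx minus AAV control, horizontal axis) of each measured gene in 12 lists (rows; genes of the central vein endothelium also stand in the ligand and R-spondin lists), with the list's median as a bar. Filled red points had an unadjusted p under 0.05 in limma, and no point passed over all genes; the list of other pericentral hepatocyte genes has such points on both sides, from -0.75 to 1.02.

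The other pericentral hepatocyte genes were split. Of 18 measured, 9 had a higher and 9 a lower mean (median 0.00), and at an unadjusted p under 0.05 there were 3 on each side (2.76% of all genes were higher and 3.01% lower). Cyp7a1, the rate-limiting enzyme of bile acid synthesis, was at 7.82, 9.01 and 8.41 in AAV control and 9.40, 9.35 and 9.55 in AAV-Glrx. Its groups did not overlap, and its log2 fold change was 1.02 (standard error 0.26), or 2.02-fold (limma, unadjusted p = 0.00485, adjusted p = 0.847). Aox3, an aldehyde oxidase, was at 9.73, 9.66 and 9.72 against 10.05, 10.02 and 9.85 (0.27, standard error 0.09), and Cyp2c54 at 4.34, 4.27 and 4.00 against 4.84, 4.98 and 4.38 (0.53, standard error 0.17). The glutathione transferases Gstm3 (-0.75, standard error 0.22) and Gstm2 (-0.32, standard error 0.10) were lower without overlap, and Cyp2c29, chosen after its values were seen, was lower with overlap (-0.50, standard error 0.16). Probes of the Cyp2c and Gstm families may also bind close relatives, so the share of each gene is uncertain.

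Cyp2e1 and Cyp1a2, the best known cytochrome P450 genes of the pericentral zone, differed by less than the spread between pools. Cyp2e1 was at 11.23, 11.62 and 11.59 in AAV control and 11.72, 11.51 and 11.69 in AAV-Glrx (0.16, standard error 0.13). Cyp1a2 was at 7.49, 7.50 and 7.54 against 7.74, 7.41 and 7.22 (-0.05, standard error 0.13). As for Glul, Slc1a2, Rhbg, Lgr5 and Axin2, the lowest Cyp2e1 value was in AAV control 1, which held for 17.9% of all genes. This order too was chosen after the values were seen.

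Beta-catenin holds part of the periportal genes low near the central vein. Of 16 measured periportal genes (Alb, also a hepatocyte marker here, among them), 13 had a lower mean in AAV-Glrx (50.5% of all genes did). Their median was -0.11, and 0 were at an unadjusted p under 0.05. A part of beta-catenin in this was not tested. Pck1, of gluconeogenesis, was at 10.11, 10.44 and 10.65 in AAV control and 9.89, 10.24 and 10.15 in AAV-Glrx (-0.31, standard error 0.15). The periportal genes Cdh1, the epithelial cadherin, and Cyp2f2 were higher in the mean, at 0.27 (standard error 0.13) and 0.32 (standard error 0.27). Cyp2f2 ranged from 9.70 to 10.56 among controls and from 9.96 to 10.80 among AAV-Glrx pools, a wider spread than its difference. The median deviation of the periportal genes was 0.08, 0.09 and -0.06 in AAV control 1, 2 and 3 and -0.04, -0.06 and -0.03 in AAV-Glrx, and AAV control 3 lay with the AAV-Glrx pools.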

How the data were processed

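Liver RNA of AAV-Glrx and AAV control mice on the NASH diet was profiled on 6 arrays, 3 pools per group, grouped by the labels. The authors deposited log2 values from the Robust Multiarray Average, 1 per Entrez gene (affy 1.61.0 under R 3.6.0 in the submitters' processing notes). This method brings all arrays to 1 distribution, so a change of most genes in 1 direction could not be seen. Array medians were 3.89 to 3.95, and r between arrays was 0.987 to 0.991. The number of arrays limits the precision, the mice in each pool are not given, and p-values measure only the spread between pools. With 3 against 3 the smallest exact permutation p is 0.1.

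AAV-Glrx was compared with AAV control by lmFit and eBayes in limma 3.58.1 (R 4.3.3), with no filter, over 27381 genes (26794 with a symbol from the platform annotation). The threshold was an adjusted p of 0.1. The 10 genes and the 19 other gene lists were chosen with earlier results of these data known. Of 178 listed symbols, 168 were measured and the others were not analysed here. Named are the 10 genes, in each pathway list those at an unadjusted p under 0.05 without overlap and the 2 smallest p, 8 best known genes, and Glrx. The endothelial, cholangiocyte, stellate, T cell, neutrophil and astrocyte lists had medians of -0.04, -0.01, 0.04, -0.03, 0.10 and -0.09. The olfactory receptor guide was chosen after the data were seen. Steps were tested on simulated data. Alternatives were another prior, centring, normalization, filter, array weights, replicate block and threshold, and leaving out each array.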

Additional observations from a re-analysis of the deposited data

How the results depend on the processing

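None of the 10 genes passed over all genes under any of the 14 alternatives (limma, smallest adjusted p 0.654, among genes above the median level). At an unadjusted p under 0.05 the count of 2 (Lgr5 and Tbx3) held in the 7 alternatives that keep all arrays and the gene threshold, and was 1 to 4 with an array left out: 1 without AAV control 1, AAV-Glrx 1 or AAV-Glrx 2 (Lgr5), and 4 without AAV-Glrx 3 (Lgr5, Axin2, Tbx3 and Rnf43). Without AAV control 3 it was 2, with Slc1a2 in place of Tbx3. Lgr5 was at an unadjusted p under 0.05 in every fit. The median log2 fold change of the 10 genes was 0.16 to 0.19 in those 7 and 0.09 to 0.26 with an array left out. With an array left out, the log2 fold change of Glul was -0.015 to 0.15 and that of Rhbg -0.0014 to 0.14, both below 0 without AAV control 1, and that of Znrf3 was -0.017 to 0.15, below 0 without AAV control 2. Over all genes, 1 gene was called, 0 after another quantile normalization, 0 with the replicate block, and 0 to 2 with an array left out. The replicate numbers gave no sign of pairing. Deviations from the group means correlated at -0.04, -0.17 and 0.02 for numbers 1, 2 and 3, and at -0.14 to 0.18 for unlike numbers. With so few arrays this cannot exclude a pairing. With the replicate block the smallest adjusted p among the 10 genes was 0.921 and the count of 2 at an unadjusted p under 0.05 did not change. With an array left out, that of Axin2 was 0.12 to 0.34, that of Lect2 0.07 to 0.22 and that of Oat -0.35 to -0.0019. Signal near background on 1 or more arrays limits Lgr5, Wnt2, Wnt5b, Wnt9b, Wnt10a, Lgr6, Apc2, Ascl2 and Cyp2c54. The same holds for the markers Timd4, Cd79a, Cd79b, Pax5 and Ms4a1.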
